A study of Mus musculus with 44 samples.

Results

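One copy of the T96K allele of Trem2 was compared with none in microglia of male 5xFAD mice. The comparison set 6 libraries of genotype 5xFAD;Trem2T96K/+ (T96K/+ below; library numbers 3, 4, 8, 9, 14 and 22) against 5 of genotype 5xFAD;Trem2+/+ (Trem2+/+ below; numbers 1, 2, 7, 13 and 21), 11 of the 44 libraries in the series. Libraries were taken by the genotype and sex in their labels. All came from males aged 8 months, and both groups carried the 5xFAD transgenes, mutant human amyloid precursor protein and presenilin that neurons express from the Thy1 promoter and that lead to amyloid plaques. The differences below therefore compare the genotypes with the transgenes present in both. The 44 libraries hold no males without the transgenes, so whether a difference depends on amyloid was not tested. Microglia had been sorted from brain by FACS for CD11b and CD45, poly(A) RNA was amplified by a low-input SMART-Seq protocol, and expression was deposited per gene as RPKM, which scales reads to the length of the gene and the size of the library. The labels number the libraries but do not say that each number is a mouse, so a p-value speaks for the spread among libraries, which may be technical in part. The series title calls T96K a gain-of-function mutation, and the comparison asks what 1 copy does to microglial transcripts in this amyloid model.

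TREM2 is a surface receptor of microglia that binds lipids, lipoproteins and amyloid. It has no signalling tail of its own and works through the adaptor encoded by Tyrobp, which recruits the kinase SYK, which in turn leads to phospholipase C gamma, encoded by Plcg2. In amyloid models TREM2 is known for letting microglia leave the homeostatic state and switch on genes of lipid handling, lysosomes and phagocytosis, the disease-associated (DAM) state, whose first stage can begin without the receptor and whose second stage needs it.

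The allele changes codon 96 of Trem2 from threonine to lysine. The gene, ENSMUSG00000023992, spans bases 48485726 to 48493472 of chromosome 17 (mm9, + strand), with the codon at 48488027 to 48488029, in exon 2 of 5. The reference sequence around the codon (GENCODE annotation on the mm9 assembly, chr17:48487982-48488074, + strand) is shown because it holds the difference between the groups that the labels name, with codon 96 in capitals.
Trem2 codon 96 and 93 bases around it: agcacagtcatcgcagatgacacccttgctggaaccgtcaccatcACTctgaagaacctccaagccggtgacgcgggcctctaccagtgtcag
RPKM counts reads over the whole gene and does not tell the alleles apart, so the genotypes were taken from the labels.

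Depth, recovered from the RPKM as whole reads assigned to genes, ranged from 5.89 to 34.1 M (median 7.15 M) in Trem2+/+ and from 5.96 to 29.8 M (median 8.18 M) in T96K/+. Trem2+/+ 21 and T96K/+ 22 were deep (29.8 M and above) and the other 9 shallow (14.1 M and below). All 11 libraries held microglial markers at high levels, with P2ry12 at 261 to 480 RPKM and Csf1r at 748 to 1374. Xist stayed at 0.374 RPKM or less, as a male library should. Libraries T96K/+ 3, 4 and 14 stood apart from the rest of the 11: on the first principal component of the 17 male 5xFAD libraries (22.4% of the variance) they lay at 25.4 to 29.0, against -29.5 to -1.09 in Trem2+/+ and -16.6, -11.7 and 7.58 in T96K/+ 8, 9 and 22. They were not alone on that side among the 17. Of the homozygous T96K/T96K males, library 6 lay beyond them at 41.8 and library 11 at 14.8, with the others at -24.4 to -0.911. Smooth muscle and vessel genes such as Gpr20, Cnn1 and Acta2 were among those that weighed most at the end where T96K/+ 3, 4 and 14 lay. Abcg1, Ltf, Ly6g and Chi3l3 were among those that weighed most at the other end. For genes of either end, a smaller difference without these libraries follows in part from how the libraries were singled out. Where leaving out libraries 3, 4 and 14 moved a list's median or a member's difference by over 1.5 times, the value without them is given too. T96K/+ 3, 4 and 14 were also the shallowest of their group, at 5.96 to 6.48 M, with 8, 9 and 22 at 9.89, 11.8 and 29.8 M. Trem2+/+ 1, 2 and 13, at 5.89, 7.15 and 6.43 M, stayed in. A value without T96K/+ 3, 4 and 14 therefore mixes genotype with depth and cannot tell the part of either.

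No gene passed the test. Of 13845 genes that reached 1 RPKM in 5 or more of the 17 male libraries, 0 (0%) had an adjusted p under 0.05 by limma on log2(RPKM + 1), with Benjamini-Hochberg adjustment over all 13845 genes, and the smallest adjusted p was 0.159. Before adjustment, 1703 genes (12.3%) had a p under 0.05, 628 (4.54%) with the higher mean in T96K/+ and 1075 (7.76%) with the lower mean. The 95% confidence interval of a gene's difference reached 0.28 to each side on the log2 scale in the median gene. Over all genes tested, the median difference was -0.016 (quartiles -0.15 and 0.13), and in all that follows a difference is T96K/+ minus Trem2+/+ on the log2(RPKM + 1) scale, which understates changes of genes with low values. The libraries of the groups did not overlap for 292 genes (2.11%), 94 (0.679%) with every T96K/+ library above every Trem2+/+ library and 198 (1.43%) with every one below. The split between directions rested on scaling: without the authors' scaling factors (0.90 to 0.995 in Trem2+/+, 0.97 to 1.13 in T96K/+), 73.1% of the genes at an unadjusted p under 0.05 were higher in T96K/+, against 36.9% with them. Without T96K/+ 3, 4 and 14, a fit with fewer libraries, 768 of the 13845 genes had an unadjusted p under 0.05. Of these, 358 were higher and 410 lower in T96K/+, and the median over all genes was 0.0009.

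**Figure D1:**
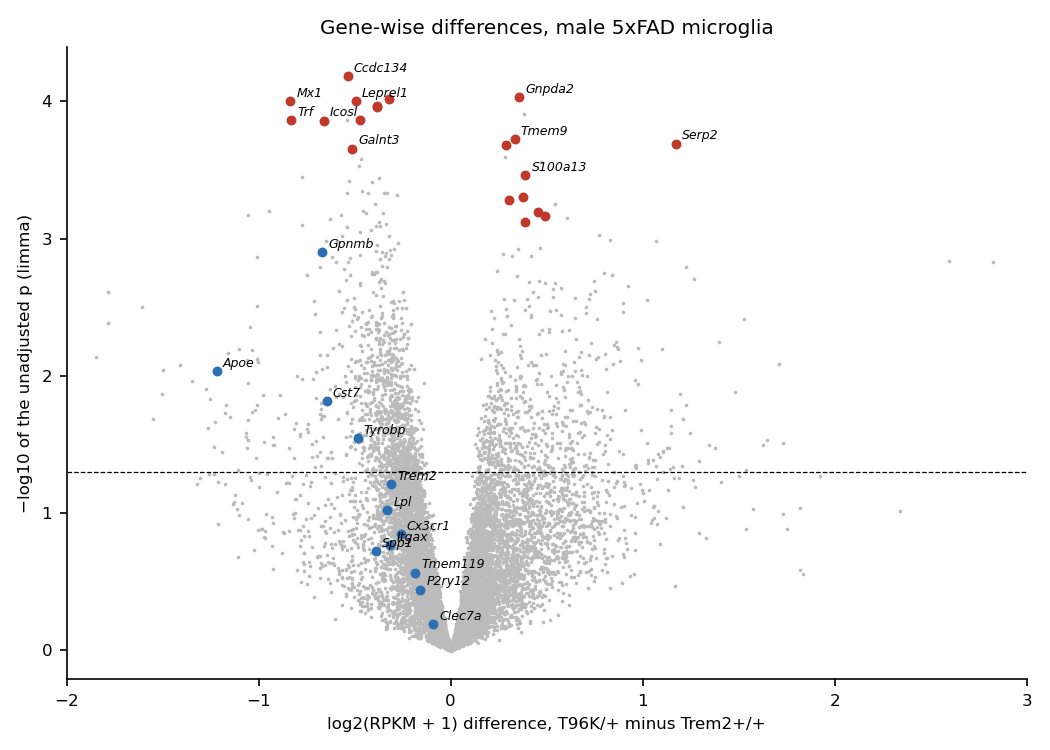
Log2 difference in RPKM + 1 (x axis, T96K/+ minus Trem2+/+) against the -log10 of the unadjusted limma p (y axis) for 13845 genes in male 5xFAD microglia. Blue points are 12 genes of known role, and the dashed line marks an unadjusted 0.05. Red points are the 10 genes in each direction with the smallest limma p among genes with a mean of 2 RPKM or more in either group, without predicted or non-coding models. The red points stand at the top of the cloud, and Serp2 lies farthest to the side among them, at 1.17.

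Trem2 itself, the gene that carries the allele, was at 945, 875, 1098, 833 and 851 RPKM in Trem2+/+ 1, 2, 7, 13 and 21. In T96K/+ 3, 4, 8, 9, 14 and 22 it was at 661, 623, 881, 874, 755 and 681 RPKM. Of the 6 T96K/+ libraries, 4 lay below the lowest Trem2+/+ library, while 8 and 9 lay within the Trem2+/+ range. The means were 920 ± 108 (SD, n = 5) and 746 ± 111 (SD, n = 6), a difference of -0.31 (SE 0.15, 95% confidence interval -0.63 to 0.02, adjusted p = 0.425 by limma). An exact two-sided permutation test of this single gene over the 11 libraries, with 462 regroupings, gave p = 0.0325, where the smallest possible was 0.00433. Over the alternatives the difference ran from -0.36 to -0.15, and without T96K/+ 3, 4 and 14 it was -0.18.

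The list of TREM2 signalling holds the receptor itself, its adaptors, kinases and other signal carriers, phosphatases that oppose them and the sheddases Adam10 and Adam17. Its differences were mostly below 0, with none past the test. Of 20 listed genes 19 were tested (Vav3 was too low), and 17 had a difference below 0, against 53.3% of all genes; the median was -0.27. In all, 5 (26.3%) were at an unadjusted p under 0.05, all lower, against 7.76% of all genes. The median was -0.12, with 1 of 19 at that level, without T96K/+ 3, 4 and 14, where 768 of all 13845 genes were at that level. Tyrobp, the adaptor, was at 7647 to 12520 RPKM in Trem2+/+ (median 9439) and at 5342 to 8728 in T96K/+ (median 6416). Every Trem2+/+ library lay above T96K/+ 3, 4, 14 and 22, and 8 and 9 overlapped the controls. Its difference was -0.48 (SE 0.20, adjusted p = 0.366 by limma), and -0.28 without T96K/+ 3, 4 and 14.

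Syk, the kinase recruited by the adaptor, was at 11.7, 13.9, 14.7, 14.2 and 12.8 RPKM in Trem2+/+ 1, 2, 7, 13 and 21. T96K/+ 3, 4, 8, 9, 14 and 22 held 7.79, 8.05, 11.1, 11.3, 8.32 and 10.3 RPKM. The groups did not overlap, with a narrow gap between T96K/+ 9 and Trem2+/+ 1. The means were 13.5 ± 1.23 and 9.48 ± 1.60 RPKM (SD, n = 5 and 6), a difference of -0.47 (SE 0.12, adjusted p = 0.231 by limma), and -0.28 without T96K/+ 3, 4 and 14. Inpp5d, the lipid phosphatase SHIP that opposes the pathway, had a difference of -0.25 and Plcg2 one of -0.35. Adam17, a protease that sheds the receptor from the surface, had -0.23, or -0.13 without T96K/+ 3, 4 and 14, and its relative Adam10 had 0.03, or 0.02 without them.

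**Figure D2:**
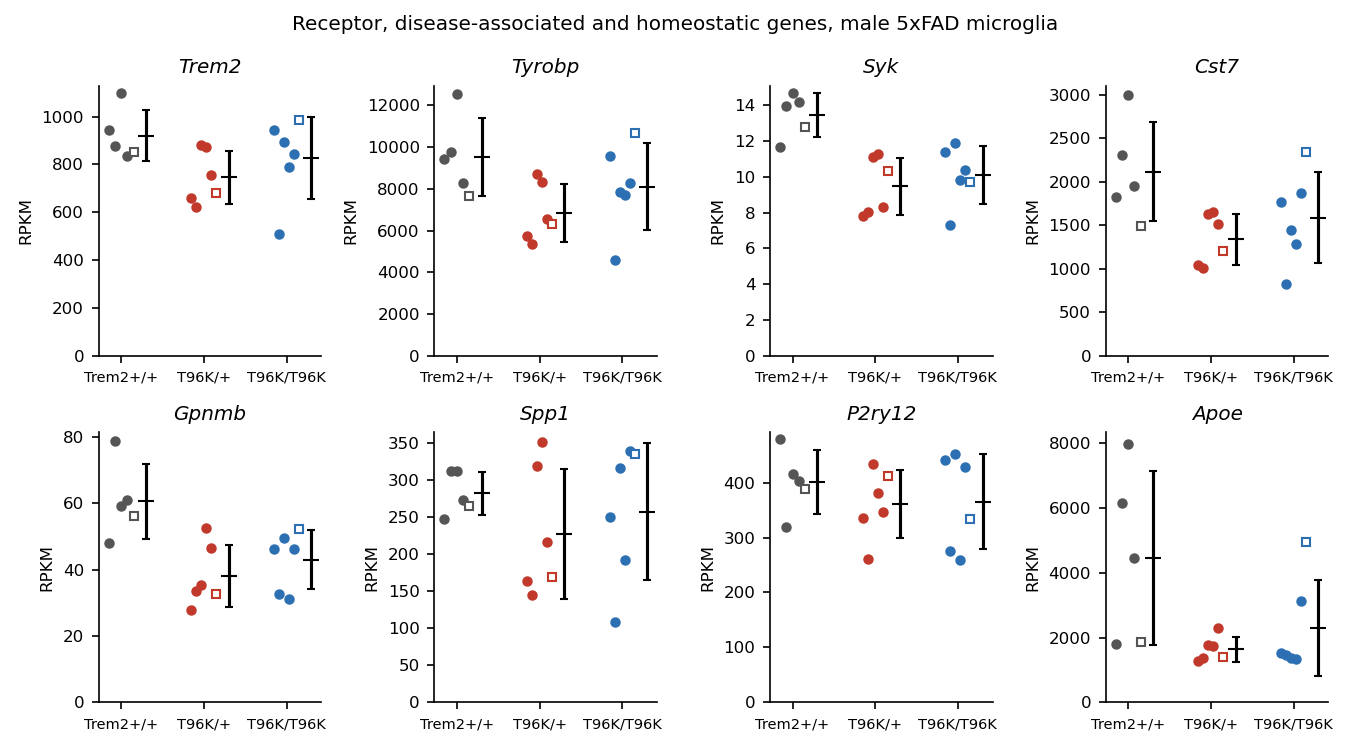
RPKM (y axes, linear, from 0) of 8 genes in each male 5xFAD library, by genotype; circles are shallow and open squares deep libraries, and the bar beside each group is the mean with its SD (Trem2+/+ n = 5, T96K/+ n = 6, T96K/T96K n = 6). Syk did not overlap between Trem2+/+ and T96K/+, with lowest and highest values of 11.7 and 11.3 RPKM, while Spp1 in T96K/+ spanned 145 to 351 RPKM.

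Genes of the first DAM stage had the largest median difference among the 19 pathway lists. Of 9 genes, 8 had a difference below 0, against 53.3% of all genes, and the median was -0.47. At an unadjusted p under 0.05 were 5 (55.6%), all lower, against 7.76% of all genes, with 0 past the test. Lyz2, the lysozyme of myeloid cells, was at 1141 to 2731 RPKM in Trem2+/+ (median 1750) and at 692 to 1051 in T96K/+ (median 822). Every T96K/+ library lay below every Trem2+/+ library. The difference was -1.01 (SE 0.26, adjusted p = 0.237 by limma), and it was -0.87 without T96K/+ 3, 4 and 14.

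H2-D1, a class I antigen-presenting molecule, was at 1100 to 1408 RPKM in Trem2+/+ (median 1177) and at 762 to 1020 in T96K/+ (median 884). These groups did not overlap either. Its difference was -0.47 (SE 0.12, adjusted p = 0.237 by limma). H2-D1 belongs to a family of similar genes between which reads may be split, as Lyz2 does with its neighbour Lyz1, so both values are uncertain in that respect.

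Apoe, the lipid carrier and in humans the strongest genetic risk factor for late Alzheimer's disease, was at 1813, 6151, 7960, 4454 and 1859 RPKM in Trem2+/+ 1, 2, 7, 13 and 21. T96K/+ 3, 4, 8, 9, 14 and 22 held 1276, 1367, 1773, 1752, 2298 and 1389 RPKM. Among these libraries, Trem2+/+ 2, 7 and 13 were far above the others, while 1 and 21 lay near the T96K/+ libraries, and the groups overlapped through T96K/+ 14. High values also occurred in T96K/T96K males, at 1350 to 4952 RPKM (median 1492). The means were 4447 ± 2687 and 1643 ± 383 RPKM (SD, n = 5 and 6), a difference of -1.22 (SE 0.41, 95% confidence interval -2.09 to -0.34, adjusted p = 0.307 by limma). It was -1.20 without T96K/+ 3, 4 and 14. Fth1, the ferritin heavy chain, was the 1 member of the first-stage list with a difference above 0, at 0.15.

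Genes of the second DAM stage, which depends on the receptor, showed the same sign with smaller values and wide overlap. Of 14 genes, 13 had a difference below 0, against 53.3% of all genes, and the median was -0.32. At an unadjusted p under 0.05 were 3 (21.4%), all lower, against 7.76% of all genes, and no member had groups that did not overlap. Gpnmb, a glycoprotein of lipid-laden phagocytes, was at 47.9 to 78.8 RPKM in Trem2+/+ (median 59.1) and at 27.7 to 52.6 in T96K/+ (median 34.5). Of 6 T96K/+ libraries, 5 lay below every Trem2+/+ library, and library 9 lay above the lowest of these. The difference was -0.67 (SE 0.17, adjusted p = 0.237 by limma), with a range of -0.77 to -0.57 over the alternatives.

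Cst7, which encodes an inhibitor of lysosomal cysteine proteases, was at 1492 to 2994 RPKM in Trem2+/+ (median 1955) and at 1009 to 1652 in T96K/+ (median 1362). Of the T96K/+ libraries, 3 lay below the Trem2+/+ range and 3 within it. Its difference was -0.65 (SE 0.24, adjusted p = 0.330 by limma). Spp1, osteopontin, was at 247 to 312 RPKM in Trem2+/+ and at 145 to 351 in T96K/+, where 4 libraries lay below and 2 above the whole Trem2+/+ range. Its difference was -0.39 (SE 0.28), and -0.075 without T96K/+ 3, 4 and 14. Clec7a, a glucan receptor widely used to mark these cells, was at 371 ± 81.2 and 346 ± 61.1 RPKM (SD, n = 5 and 6). Its difference of -0.093 had a 95% confidence interval of -0.51 to 0.33 and turned above 0 in 5 of the alternatives.

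Itgax, the integrin CD11c, had a difference of -0.32 (SE 0.22) and lipoprotein lipase, Lpl, one of -0.33 (SE 0.19). Both had overlapping groups, and without T96K/+ 3, 4 and 14 the differences were -0.080 and -0.12. In the 20-gene list of plaque-associated microglia, 19 differences were below 0 and the median was -0.28. Dkk2, a secreted inhibitor of Wnt signalling, was the member whose groups did not overlap, at 9.07 to 12.1 RPKM in Trem2+/+ and 6.35 to 7.95 in T96K/+. Without T96K/+ 3, 4 and 14 the medians were -0.28 for the first stage, -0.10 for the second stage and -0.046 for plaque-associated genes, beside 0.0009 for all genes.

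**Figure D3:**
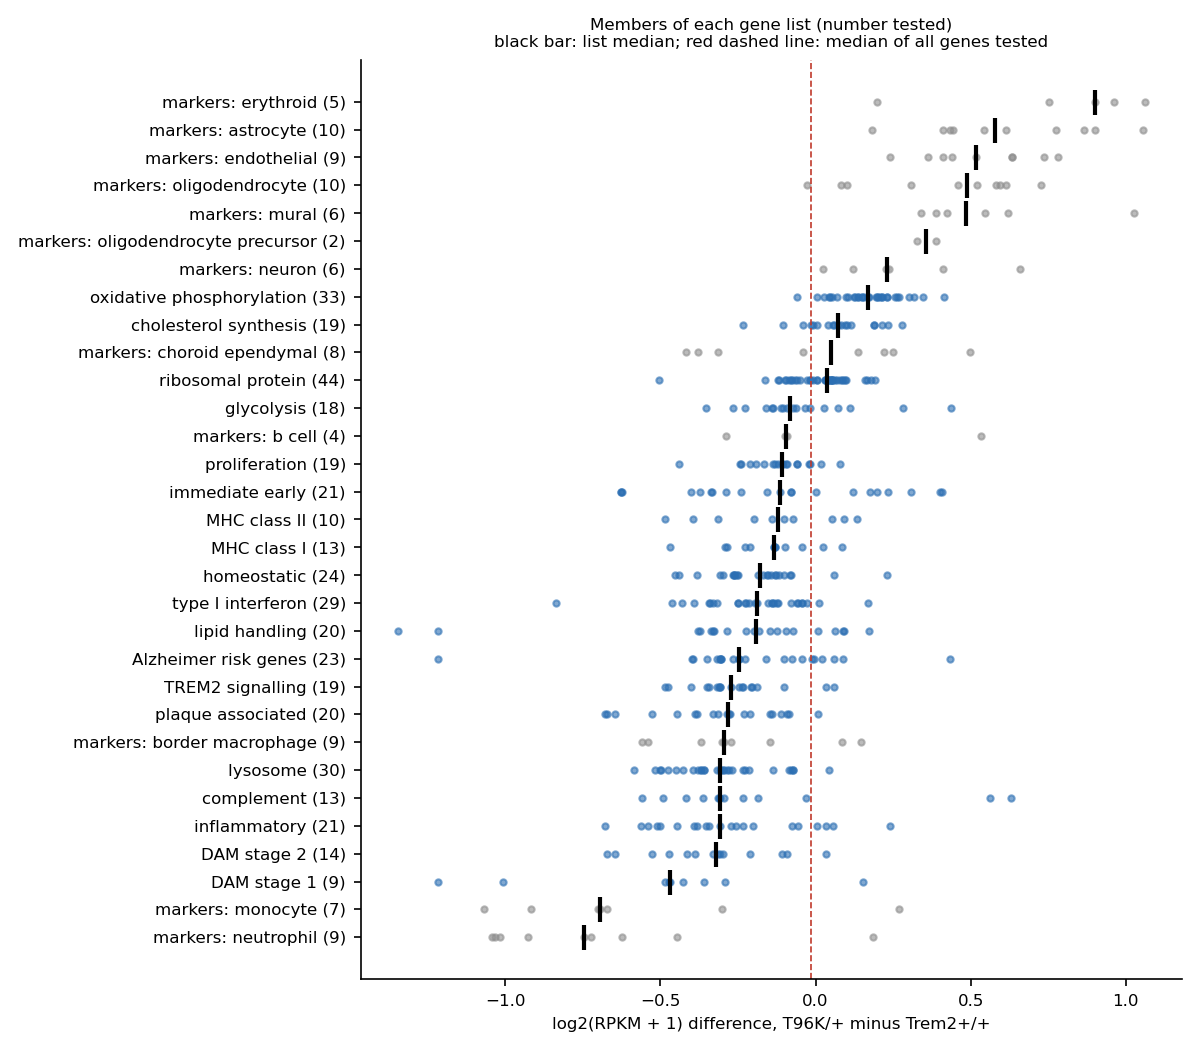
Log2 differences in RPKM + 1 (x axis, T96K/+ minus Trem2+/+) of the tested members of each gene list, 1 point per gene; blue points are pathway lists, grey points markers of other cell types, black bars list medians and the red dashed line the median over all genes tested (-0.016). First-stage DAM genes centre at -0.47, oxidative phosphorylation genes at 0.17, and the neutrophil and endothelial markers at -0.74 and 0.52.

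Homeostatic genes gave no sign opposite to the DAM genes: 22 of 24 differences were below 0, against 53.3% of all genes, with a median of -0.18. At an unadjusted p under 0.05 were 5 (20.8%), all lower, against 7.76% of all genes. The median was -0.086, with 17 of 24 below 0 and 0 at that level, without T96K/+ 3, 4 and 14. P2ry12, the purinergic receptor of resting microglia, was at 319 to 480 RPKM in Trem2+/+ (median 402) and at 261 to 434 in T96K/+ (median 364). A single T96K/+ library, 4, lay below the Trem2+/+ range. Its difference of -0.16 (SE 0.17) was 0.037 without T96K/+ 3, 4 and 14. Tmem119 had a difference of -0.19 (SE 0.16) and Cx3cr1, the fractalkine receptor, one of -0.26 (SE 0.17); without T96K/+ 3, 4 and 14 they were -0.044 and -0.0077. Sall1, a transcription factor that maintains microglial identity, was at 31.2 to 41.2 RPKM in Trem2+/+ and 19.9 to 36.2 in T96K/+, a difference of -0.44 (SE 0.13, adjusted p = 0.287 by limma) and of -0.27 without those libraries. Csf1r, the receptor on which microglial survival depends, had a difference of -0.38 with groups that did not overlap, and of -0.19 without those libraries. Cst3, cystatin C, did not overlap, at 17312 to 24759 against 10690 to 16521 RPKM, but its difference of -0.45 became 0.031 under quantile normalization.

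Itgam, which encodes the CD11b used for the sort, did not overlap either: it was at 144 to 157 RPKM in Trem2+/+ and at 88.8 to 135 in T96K/+. The difference was -0.36 (SE 0.15, adjusted p = 0.351 by limma). Ptprc, which encodes CD45, had a difference of -0.18 (SE 0.13) with overlapping groups. The differences without T96K/+ 3, 4 and 14 were -0.22 for Itgam and -0.056 for Ptprc. In bulk RNA, fewer cells of a type and less RNA of a gene per cell cannot be told apart.

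Lysosomal genes were the list with the largest number of members at an unadjusted p under 0.05. Of 30 genes, 29 had a difference below 0, against 53.3% of all genes, and the median was -0.31. At that level were 11 (36.7%), all lower, against 7.76% of all genes, but 0 passed the test and the groups overlapped for every member. Cathepsin S, Ctss, was at 4839 to 7623 RPKM in Trem2+/+ (median 6044) and 3515 to 4917 in T96K/+ (median 4391), with 1 T96K/+ library inside the Trem2+/+ range. Its difference was -0.50 (SE 0.17, adjusted p = 0.307 by limma). Prosaposin, Psap, the precursor of activators of sphingolipid breakdown, had a difference of -0.37 (SE 0.13). The glycosidases Man2b1, Hexa and Glb1 had -0.58, -0.52 and -0.50, progranulin, Grn, had -0.39, and the proton pump subunit Atp6v1a had 0.044. Without T96K/+ 3, 4 and 14 the median was -0.15 and 0 of 30 members were at an unadjusted p under 0.05; the differences were then -0.23 for Psap, -0.24 for Grn and 0.11 for Atp6v1a.

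Lipid handling genes had a median of -0.19, with 15 of 20 differences below 0, against 53.3% of all genes, and 6 of 20 at an unadjusted p under 0.05, all lower, against 7.76%. That median was -0.096 without T96K/+ 3, 4 and 14, with 2 of 20 at that level, beside 768 of all 13845 genes. Abcg1, a cholesterol exporter, was at 47.9, 20.9, 33.4, 32.6 and 27.99 RPKM in Trem2+/+ 1, 2, 7, 13 and 21. In T96K/+ it was at 6.24, 5.88 and 6.02 RPKM in libraries 3, 4 and 14, and at 32.1, 14.6 and 22.9 in 8, 9 and 22. Libraries 3, 4 and 14 were thus the low ones, and 8 and 22 overlapped the controls. Abcg1 was among the genes that weighed most on the component by which 3, 4 and 14 were singled out, so their low values are partly given by that choice. The difference of -1.35 (SE 0.47, adjusted p = 0.308 by limma) was -0.49 without 3, 4 and 14. The cholesterol synthesis list, of which 19 genes were tested, had a median of 0.073 with 14 differences above 0; Fdps, the farnesyl diphosphate synthase, had 0.19 (SE 0.084). The median of that list was 0.15 without those libraries.

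Interferon and class I antigen presentation genes were mostly below 0 as well. Of 29 type I interferon genes tested, 27 had a difference below 0, against 53.3% of all genes, and the median was -0.19. At an unadjusted p under 0.05 were 9 (31.0%), all lower, against 7.76% of all genes. The median was -0.15 without T96K/+ 3, 4 and 14, with 25 of 29 below 0 and 6 at that level. Over all genes in that fit, 768 of 13845 were at that level, 410 of them lower, and the median was 0.0009. Mx1, an interferon-induced GTPase on chromosome 16 (97668642 to 97684514), was at 2.49, 2.41, 2.48, 3.43 and 2.50 RPKM in Trem2+/+ 1, 2, 7, 13 and 21. T96K/+ 3, 4, 8, 9, 14 and 22 held 0.718, 0.927, 1.10, 1.90, 0.852 and 0.942 RPKM. The groups did not overlap, and T96K/+ 9 was the nearest to the controls. The difference was -0.84 (SE 0.17, adjusted p = 0.159 by limma), with a range of -1.31 to -0.68 over the alternatives.

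The other genes of the interferon list did not follow Mx1 in size. Stat2, which carries the interferon signal to the nucleus, had a difference of -0.34 (SE 0.11), Zbp1, a sensor of nucleic acids, -0.43, and Isg15 -0.043. With T96K/+ 3, 4 and 14 left out, Zbp1 had -0.14 and Isg15 -0.076. Class I antigen presentation had a median of -0.13 with 11 of 13 differences below 0, against 53.3% of all genes. At an unadjusted p under 0.05 were 3 of the 13, all lower, against 7.76% of all genes. Class II had a median of -0.12, with 7 of 10 below 0 and 0 at that level. The class II median turned to 0.16 without T96K/+ 3, 4 and 14. Inflammatory genes had a median of -0.31 with 17 of 21 below 0; among them the chemokine Ccl5 had -0.54 and Tnf -0.56, both with overlapping groups. Without those libraries the inflammatory median was -0.073, with 14 of 21 below 0, and Ccl5 had -0.31 and Tnf -0.097.

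Complement genes held members in both directions. C1qb, a chain of the first complement component, was at 5800 to 8414 RPKM in Trem2+/+ and at 3721 to 5887 in T96K/+, a difference of -0.49 (SE 0.18, adjusted p = 0.325 by limma), while Serping1, the inhibitor of that component, had 0.63. Over the list 11 of 13 differences were below 0, with a median of -0.31. With T96K/+ 3, 4 and 14 left out, that median was -0.12 and Serping1 had 0.35. Of 23 tested genes near Alzheimer's risk loci, 19 had a difference below 0, against 53.3% of all genes, and the median was -0.25. This list shares members with others, such as Apoe with lipid handling, so its counts partly repeat theirs. At an unadjusted p under 0.05 were 9 (39.1%), all lower, against 7.76% of all genes. Without those libraries the median was -0.12, with 17 of 23 below 0 and 1 at that level, beside 768 of all 13845 genes. Bin1, which shapes endocytic membranes, had -0.30 and was the member whose groups did not overlap, and Sorl1, a sorting receptor for the amyloid precursor, had -0.32; without those libraries the values were -0.12 and -0.15.

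Genes of oxidative phosphorylation had the opposite sign. Of 33 genes, 32 had a difference above 0, against 46.7% of all genes, the median was 0.17, and 10 (30.3%) were at an unadjusted p under 0.05, all higher, against 4.54% of all genes; 0 passed the test. Ndufv1, a subunit of complex I, was at 48.2, 44.2, 48.1, 40.8 and 51.6 RPKM in Trem2+/+ 1, 2, 7, 13 and 21. T96K/+ 3, 4, 8, 9, 14 and 22 held 61.8, 55.2, 62.4, 56.1, 56.1 and 65.6 RPKM. Every T96K/+ library lay above every Trem2+/+ library. Its difference was 0.35 (SE 0.094, adjusted p = 0.253 by limma), and 0.39 without T96K/+ 3, 4 and 14.

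Atp5b, the beta subunit of ATP synthase, was at 172 to 203 RPKM in Trem2+/+ and at 218 to 233 in T96K/+, also without overlap. Its difference was 0.23 (SE 0.076, adjusted p = 0.303 by limma). Ndufb9 and Cox6c had 0.42 and 0.32, with overlapping groups. The median stayed above 0 in every alternative run, from 0.11 to 0.27, and was 0.20 with 33 of 33 above 0 without T96K/+ 3, 4 and 14. The alternatives reuse the same libraries, so the kept sign is no separate evidence. Among the 9 shallow libraries alone the median was 0.27, with 23 of 33 at an unadjusted p under 0.05. In that fit 2220 of all 13845 genes were at that level, 925 of them higher. Cytosolic ribosomal protein genes had a median of 0.036, with 28 of 44 above 0, and glycolysis genes one of -0.083, which was 0.021 without the scaling factors; without T96K/+ 3, 4 and 14 the medians were 0.080 and 0.094. Many of these genes have processed pseudogenes that can take up reads.

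Genes were ranked by p among those with a mean of 2 RPKM or more in either group, without predicted or non-coding models. Among the 10 of these with the smallest p and a difference above 0 were several enzymes. Gnpda2, a glucosamine-6-phosphate deaminase on chromosome 5 (69964347 to 69983576), was at 7.66 to 9.49 RPKM in Trem2+/+ and 9.61 to 11.9 in T96K/+. A narrow gap separated the groups, with Trem2+/+ 21 the highest control. The difference was 0.36 (SE 0.070, adjusted p = 0.159 by limma). Tmem9, an endosomal and lysosomal membrane protein on chromosome 1 (137904796 to 137931607), was at 27.4, 25.03, 22.9, 23.3 and 25.8 RPKM in Trem2+/+ 1, 2, 7, 13 and 21. T96K/+ 3, 4, 8, 9, 14 and 22 held 31.9, 29.6, 32.4, 31.9, 32.5 and 31.2 RPKM, all above the controls and close together. Its difference was 0.33 (SE 0.070, adjusted p = 0.192 by limma).

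S100a13, a calcium-binding protein, was at 50.5 to 58.8 RPKM in Trem2+/+ and 65.2 to 81.9 in T96K/+, without overlap. Its difference was 0.39 (SE 0.087, adjusted p = 0.214 by limma). Serp2, a stress-associated protein of the endoplasmic reticulum, had the largest difference of the 10, 1.17 (SE 0.25, adjusted p = 0.192 by limma). It was at 1.63 to 4.11 RPKM in Trem2+/+ and 3.98 to 10.96 in T96K/+, where library 14 alone overlapped the controls. The other genes were Acadm (0.29), which oxidises medium-chain fatty acids, Acss2 (0.49), which makes cytosolic acetyl-CoA, Psmd7 (0.31) of the proteasome, Stmn1 (0.46), which destabilises microtubules, Dut (0.39), a dUTPase, and Def8 (0.38). Of the 10, Serp2 and Def8 had overlapping groups. Separation of the others is favoured by picking them by p in the same libraries. Over all genes tested, 94 (0.679%) had every T96K/+ library above every Trem2+/+ library.

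By the same ranking, the 10 genes with the smallest p and a difference below 0 all had groups that did not overlap, which picking by p in the same libraries favours. Over all genes tested, 198 (1.43%) had every T96K/+ library below every Trem2+/+ library. Leprel1, a collagen prolyl hydroxylase on chromosome 16 (25959374 to 26105870), was at 12.4, 14.6, 13.7, 13.1 and 12.4 RPKM in Trem2+/+ 1, 2, 7, 13 and 21. T96K/+ 3, 4, 8, 9, 14 and 22 held 7.73, 8.77, 8.95, 10.5, 9.70 and 9.12 RPKM. The highest T96K/+ library, 9, lay well below the lowest controls. The difference was -0.50 (SE 0.098, adjusted p = 0.159 by limma).

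Trf, transferrin, the iron carrier on chromosome 9 (103106331 to 103132774), was at 20.1 to 42.3 RPKM in Trem2+/+ (median 30.7) and 14.2 to 19.8 in T96K/+ (median 15.99). Trem2+/+ 1 lay close to the T96K/+ range and the other controls well above it. Its difference was -0.83 (SE 0.17, adjusted p = 0.159 by limma). Icosl, a costimulatory ligand for T cells, was at 15.7 to 22.4 RPKM in Trem2+/+ and 8.88 to 14.6 in T96K/+, a difference of -0.66 (SE 0.14, adjusted p = 0.159 by limma). Spns1, a lysosomal lysophospholipid transporter, had -0.32, Bicd2, an adaptor of the motor dynein, -0.38, and Ift172 of cilium transport -0.38. Abcc5, an export pump, had -0.47, Galnt3, which starts O-linked glycosylation, -0.51, and Ccdc134 -0.54. For the 20 genes ranked in this way the sign was the same in every alternative run. They were picked for small p in the same libraries, so a kept sign follows largely from that choice and is no separate evidence.

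**Figure D4:**
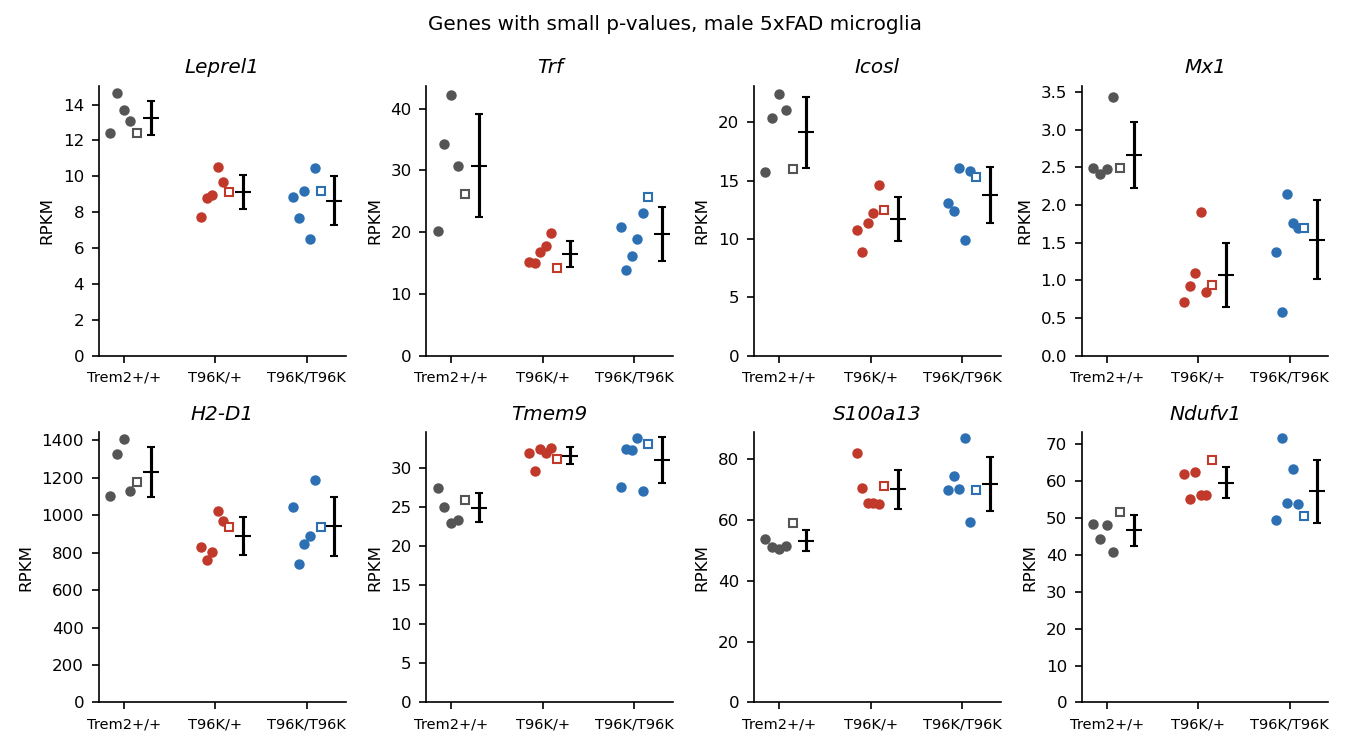
RPKM (y axes, linear, from 0) of 8 genes with small p-values in each male 5xFAD library, by genotype; circles are shallow and open squares deep libraries, and the bar beside each group is the mean with its SD (Trem2+/+ n = 5, T96K/+ n = 6, T96K/T96K n = 6). In all 8 panels every T96K/+ library lies on 1 side of every Trem2+/+ library, as for Leprel1 at 12.4 to 14.6 against 7.73 to 10.5 RPKM, a separation that choosing genes by small p favours.

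Markers of other cell types differed between the groups too. All 9 endothelial markers were tested and all 9 had a difference above 0 (median 0.52), but none was at an unadjusted p under 0.05. Their summed RPKM was 603 to 1378 in Trem2+/+ (median 650) and 573 to 2055 in T96K/+ (median 1737). T96K/+ 3, 4, 14 and 22 were the highest, at 1732 to 2055, and 8 and 9 were at 573 and 766, within or below the control range. Cldn5, the tight junction protein of brain endothelium, was at 147 to 370 RPKM in Trem2+/+ and 139 to 561 in T96K/+. Mural cell markers gave a median of 0.48 (6 of 6 above 0, 3 at an unadjusted p under 0.05 and higher, against 4.54% of all genes) and a summed RPKM of 201 to 344 against 245 to 827. Astrocyte markers gave a median of 0.58 (10 of 10 above 0; summed 116 to 560 against 225 to 547 RPKM) and oligodendrocyte markers 0.49 (9 of 10; summed 258 to 1327 against 401 to 892 RPKM). Without T96K/+ 3, 4 and 14 the medians were -0.014 for endothelial, 0.20 for mural, 0.66 for astrocyte and 0.23 for oligodendrocyte markers, and Cldn5 had a difference of 0.23 in place of 0.74.

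Markers of blood leukocytes had the opposite sign. Neutrophil markers had a median of -0.74, with 8 of 9 below 0 and 5 at an unadjusted p under 0.05, all lower, against 7.76% of all genes, and their summed RPKM was 2346 to 6896 in Trem2+/+ (median 4157) and 1745 to 3713 in T96K/+ (median 2910). Monocyte markers had a median of -0.70, with 6 of 7 below 0 and 4 at that level, and a summed RPKM of 96.3 to 133 against 48.3 to 112. Retnlg, a neutrophil granule gene, was at 104 to 233 RPKM in Trem2+/+ and 44.8 to 142 in T96K/+, and Ly6c2 of inflammatory monocytes at 21.9 to 35.9 and 7.59 to 25.3. Their differences of -1.02 and -1.07 were -0.50 and -0.64 without T96K/+ 3, 4 and 14. The medians were then -0.44 for neutrophil and -0.22 for monocyte markers, with 0 members of either list at an unadjusted p under 0.05. Border macrophage markers had a median of -0.29 (7 of 9 below 0; summed 49.1 to 86.6 against 40.5 to 64.3 RPKM). Erythroid markers summed to 21.6 to 268 against 41.9 to 550 RPKM (median 0.90, 5 of 5 above 0, but -0.031 by limma-voom on recovered reads). Neuron markers had a median of 0.23 (summed 8.99 to 32.1 against 14.1 to 36.6 RPKM) and the 2 tested markers of oligodendrocyte precursors one of 0.36. Choroid plexus or ependymal markers had a median of 0.049, which was -0.22 by limma-voom, and B cell markers one of -0.096 (summed 305 to 391 against 214 to 346 RPKM). None of the 11 T or NK cell markers was tested, and they summed to at most 2.39 RPKM per library, with Gzma at 0 in 10 of the 11 libraries and Cd3e at 0 in 9. With T96K/+ 3, 4 and 14 left out, the medians were -0.058 for border macrophage, 0.22 for erythroid, 0.38 for neuron, 0.19 for oligodendrocyte precursor, -0.23 for choroid plexus or ependymal and 0.091 for B cell markers. The part of these cells in the differences of the microglial lists was not tested; with the endothelial level as a covariate the second-stage DAM and lysosome medians were -0.18 and -0.19, and with the neutrophil level -0.18 and -0.20.

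**Figure D5:**
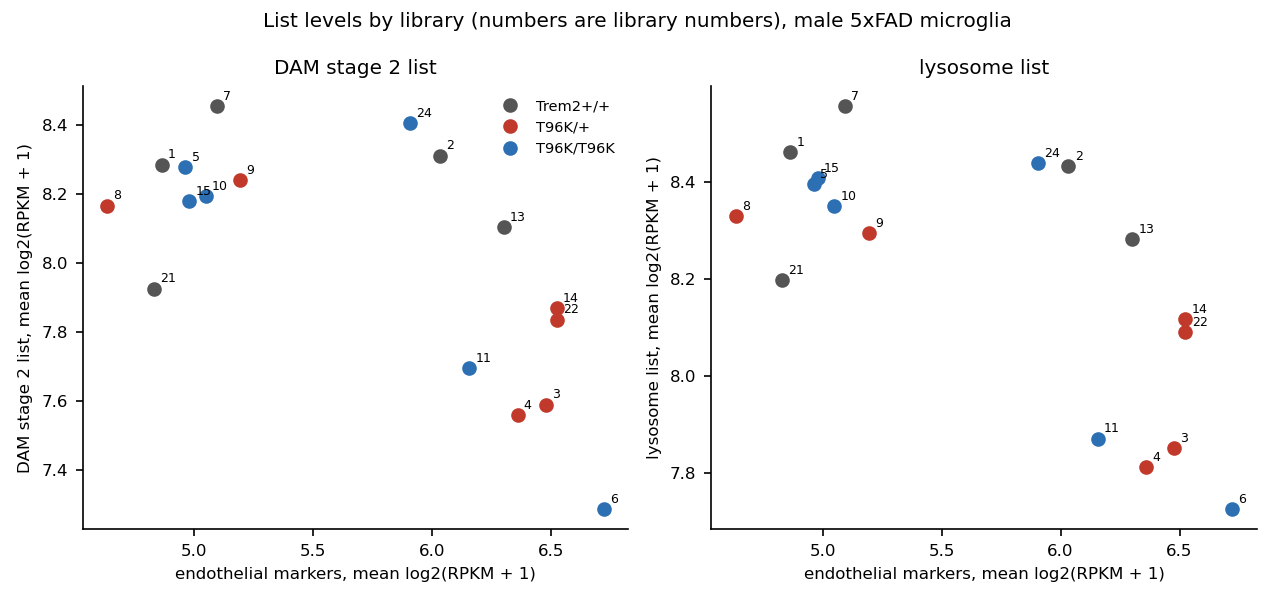
Mean log2(RPKM + 1) of the endothelial markers (x axes) against that of the second-stage DAM list (left) and the lysosome list (right) in the 17 male 5xFAD libraries, coloured by genotype and labelled by library number. T96K/+ 3 and 4 combine endothelial levels of 6.48 and 6.36 with low values of both lists, T96K/+ 14 and 22 are the highest T96K/+ libraries in endothelial level (6.52 each), T96K/+ 9 lies among the controls (5.19) and T96K/+ 8 just below them (4.63, lowest control 4.83), and T96K/T96K 6 lies farthest to the right at 6.72.

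Homozygous males and heterozygous females gave further context. The 6 T96K/T96K males shared the Trem2+/+ controls with the comparison above, so values are only set side by side. Against Trem2+/+, 0 of 13845 genes passed in T96K/T96K and 1193 (8.62%) were at an unadjusted p under 0.05. The median differences of T96K/T96K were -0.27 for the first DAM stage, -0.22 for the second, -0.18 for lysosome and 0.23 for oxidative phosphorylation. Between T96K/T96K and T96K/+, 0 genes passed by limma (smallest adjusted p = 0.999) and 342 (2.47%) were at an unadjusted p under 0.05. Mx1 was at 1.54 ± 0.53, Leprel1 at 8.65 ± 1.38 and Trem2 at 826 ± 171 RPKM in T96K/T96K (SD, n = 6).

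In females of the same age, 9 T96K/+ against 6 Trem2+/+ libraries of the 5xFAD line gave 0 of 14591 genes past the test and 523 (3.58%) at an unadjusted p under 0.05. One of the 9, female T96K/+ 22, had Xist and Y-linked levels that went against its sex label, and without it 0 passed and 457 (3.13%) were at that level. The difference between the male and the female effect of T96K/+ also passed for 0 of 13636 genes, with 643 (4.72%) at an unadjusted p under 0.05, and without female T96K/+ 22 for 0, with 827 (6.06%). The gene with the smallest p of that difference was Ppp1r26, a regulatory subunit of protein phosphatase, at -0.55 in males and 0.90 in females (adjusted p = 0.486 by limma), or 0.78 in females without that library (adjusted p = 0.675 by limma for the difference).

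Side by side, the medians in males and females were -0.47 and -0.10 for the first DAM stage, -0.32 and -0.23 for the second, -0.31 and -0.067 for lysosome and 0.17 and -0.11 for oxidative phosphorylation. Without female T96K/+ 22 the female medians were -0.033, -0.16, -0.041 and -0.15. These lists were not tested between the sexes; their member genes were, and none passed with or without that library. Trem2 differed by -0.31 in males and by -0.18 in females, or -0.13 without female T96K/+ 22. Gpnmb differed by -0.67 in males and by -0.39 in females, or -0.13 without it. Apoe differed by -1.22 in males and by 0.43 in females, or 0.63 without it, and the difference between the sexes was -1.65 (SE 1.03), or -1.84 (SE 1.03) without it.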

How the data were processed

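Reads were aligned to mm9 with STAR, per the series design text; the submitters' processing notes also name HTSeq and edgeR, without versions or roles. The authors deposited RPKM per gene, 37583 genes each in 1 table of male and 1 of female libraries. In each library, RPKM times gene length gave whole reads within 0.01 of a read, from which depth and the authors' scaling factors were computed. A gene needed 1 RPKM or more in 5 or more of 17 male libraries and log2(RPKM + 1) was fitted with limma 3.58.1 (R 4.3.3; trend and robust options), with 1 mean per genotype, so that T96K/T96K shared the estimate of spread; the sex difference was fitted over all 44 libraries. Adjusted p-values use the Benjamini-Hochberg method over all genes, with calls under 0.05. The fit was tested on simulated counts drawn independently for each gene and library. That test does not cover shifts shared by many genes of a library. Library pairs of a group differed beyond sampling noise, with a chi-square of at least 6.37 per degree of freedom. The chemistry does not mark the strand, so antisense partners cannot be told apart. Named genes were 12 genes of known role, the 10 with the smallest p in each direction (mean of 2 RPKM or more in either group; no predicted or non-coding models) and, of each list, the 2 with the smallest p, all written as not called; other list members were chosen for their role or after their values were seen. The members and the 19 pathway and 13 marker lists were chosen with earlier results of these data known. Some genes belong to more than 1 list, such as Gpnmb (second-stage DAM and plaque-associated) and H2-D1 (first-stage DAM and class I). Counts from different lists are therefore not separate results.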

Additional observations from a re-analysis of the deposited data

Results flagged for a closer look

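Among 130 sets of values examined (a named gene or list level within 1 genotype group), 7 held a library far from the others of its group, where chance alone marks about 1 in 20. In Trem2+/+, library 2 held 327 RPKM of Tmem119, below the next value of 414. Trem2+/+ 21, the deep library, held 9.49 RPKM of Gnpda2 beside a next value of 8.14, a mean erythroid marker level of 5.03 on the log2 scale beside 2.85, and a mean level of the sort genes Itgam and Ptprc of 6.30 beside 6.53. Trem2+/+ 13 held 3.43 RPKM of Mx1 beside 2.50, and so stood farther from T96K/+ than the other controls. In T96K/+, library 14 held 12.2 RPKM of Bicd2 beside 10.8, and library 8 held 5.94 RPKM of Abcc5 beside 7.21.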

How the results depend on the processing

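The count of genes called, 0, became 3 in a fit over the 11 libraries alone (Svip 0.65, 2310022B05Rik 0.47 and Pisd-ps1 -0.47, adjusted p = 0.0436 by limma) and 1 without T96K/+ 22 (AC161805.1, adjusted p = 0.0134 by limma); leaving out each library in turn it ran from 0 to 1, and it was 0 in all other alternatives run, limma-voom included, which gave 1730 genes at an unadjusted p under 0.05. Genes at an unadjusted p under 0.05 numbered 1703, and 1229 to 2277 on leaving out each library, 1133 with at least 5 RPKM in 5 libraries, where 8337 genes were tested, and 768 without T96K/+ 3, 4 and 14, where fewer samples were used. Trem2 kept its sign, from -0.36 to -0.24 on leaving out each library. The deep set held 1 library of each group, so the shallow set alone was fitted, with 2220 genes at an unadjusted p under 0.05. Of 2147 values of 90 named genes, 2137 kept direction and side of the threshold. The 10 that turned sign were Cst3 (0.031, quantile normalization), Olig1 (-0.041, limma-voom on recovered reads), Cspg4 (-0.014, without T96K/+ 3, 4 and 14), P2ry12 (0.0048 with the neutrophil level as a covariate, 0.037 without T96K/+ 3, 4 and 14) and Clec7a (-0.18 to 0.019 on leaving out each library, above 0 without Trem2+/+ 1, 0.011 without scaling factors, 0.067 and 0.044 with the endothelial and the neutrophil level as covariates, 0.11 without T96K/+ 3, 4 and 14); the cause was not tested. Limma-voom, the unscaled values, both covariates, the fit without 3, 4 and 14 and the female fit without 22 were chosen after seeing the data. The planned count tests were not run, because the deposited unit is RPKM. No paired analysis was possible because the library numbers of the genotypes do not overlap. Depth of 5.89 M reads in the shallowest library limits genes of low RPKM most.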

Other observations

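Early response genes had members in both directions. Of 21 immediate early and heat shock genes tested, which respond within minutes to handling of cells, 13 had a difference below 0 and 8 above, with a median of -0.12 that was 0.041 without Trem2+/+ 7 and -0.041 without T96K/+ 3, 4 and 14. Ier5 was at 71.7 to 133 RPKM in Trem2+/+ and 54.2 to 72.2 in T96K/+ (difference -0.63, SE 0.15, adjusted p = 0.218 by limma), and Klf6 at 98.9 to 183 and 137 to 211 (difference 0.41, SE 0.16, adjusted p = 0.332 by limma). Proliferation genes had a median of -0.11, with 17 of 19 below 0 and none at an unadjusted p under 0.05, and the median was 0.032 without T96K/+ 3, 4 and 14.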
